A study of Mus musculus with 6 samples.

Results

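Inflammasomes are cytosolic protein complexes through which myeloid cells turn the recognition of microbes or damage into inflammation. A sensor of the NLR family, or a NAIP protein that first binds a bacterial ligand and then engages NLRC4, nucleates the complex, the adaptor ASC joins sensor and protease, and caspase-1 then cuts the precursors of interleukin-1β and interleukin-18. Caspase-1, and caspase-11 in the route that senses bacterial lipopolysaccharide in the cytosol, also cut gasdermin D, whose fragment opens pores in the plasma membrane and brings about the lytic death called pyroptosis.

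The 9 genes described here encode 5 sensors (Nlrp3, Nlrp1b, Nlrc4, Naip2 and Naip5), the adaptor ASC (Pycard), the 2 inflammatory caspases (Casp1, and Casp4 for caspase-11) and gasdermin D (Gsdmd). The rule that defines them uses their names and no measured value, though it was written with earlier results of these data known. They are 9 of 21780 features in the count table, and all were measured and tested. The RNA came from viable CD45+CD11b+ cells, that is leukocytes carrying the myeloid integrin CD11b, sorted from the pancreas of wild-type C57BL/6 mice 7 days after an intraperitoneal injection. The control group received PBS and the treated group received 1 mg of WGP, whole glucan particles, which are hollow yeast shells rich in β-glucan. Each group had 3 libraries. Mice of 6 to 8 weeks and of both sexes were used in the study, and the sex behind each library was not given. Per the paper, each sample was an animal of its own within a single experiment, so the p-values measure the spread between animals of that experiment. A bulk library averages over all sorted cells, so fewer cells of a type and less RNA per cell cannot be told apart.

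The libraries held 35334645 to 43341834 counted reads, and 12147 to 12860 genes had counts in a library. Log2 levels of 2 libraries of the same group correlated at 0.894 to 0.945 across genes, which are not independent replicates. Libraries of different groups correlated at 0.858 to 0.896, so the ranges overlapped. WGP replicate 2 correlated at 0.908 and 0.903 with WGP replicates 1 and 3, which correlated at 0.945 with each other. PBS replicate 1 stood apart from the other PBS libraries. It had the highest summed CPM (reads of a gene scaled to a common library total) for neutrophil markers (6530, against 3720 and 2420 in PBS replicates 2 and 3) and B cell markers (2410, against 621 and 361), and the lowest for resident macrophage markers (5620, against 11200 and 14400). Counts of 4 Y-linked genes were 0 in PBS replicate 1, 8972 and 10063 in PBS replicates 2 and 3, and 0, 0 and 1 in the WGP libraries, so that their presence moved with treatment and could not be told apart from it outside PBS replicate 1. Of the 9 inflammasome genes, 7 had their lowest PBS level in PBS replicate 1.

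The study asked what an earlier encounter with β-glucan did to the myeloid cells of the pancreas. In the cells from WGP-treated mice, 4 of the 9 inflammasome genes rose and none fell at an adjusted p of 0.05: Gsdmd (2.66-fold), Naip2 (2.21-fold), Pycard (2.15-fold) and Nlrp1b (1.76-fold). Casp1 was 1.62-fold higher and Nlrp3 1.37-fold higher without passing the test, Casp4 was 1.28-fold higher with overlapping groups, and Nlrc4 and Naip5 had near-equal means. The passing genes were 2 sensors, the adaptor and the executioner, while neither caspase passed. Of all 14429 genes tested with edgeR's quasi-likelihood test, 7.54% passed as higher in WGP and 14.4% passed in either direction. All 3 WGP libraries lay above all 3 PBS libraries for 5 of the 9 genes (the 4 that passed and Casp1), against 16.0% of all tested genes, and no member was separated in the other direction, where the groups of 32.0% of all tested genes were apart one way or the other. The median log2 fold change of the 9 genes was 0.70, beside -0.05 over all tested genes. The summed level of the 9 genes was 701 to 894 CPM in the PBS libraries and 1280 to 1420 CPM in the WGP libraries. All levels are TMM-scaled CPM unless a length is named.

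**Figure D1:**
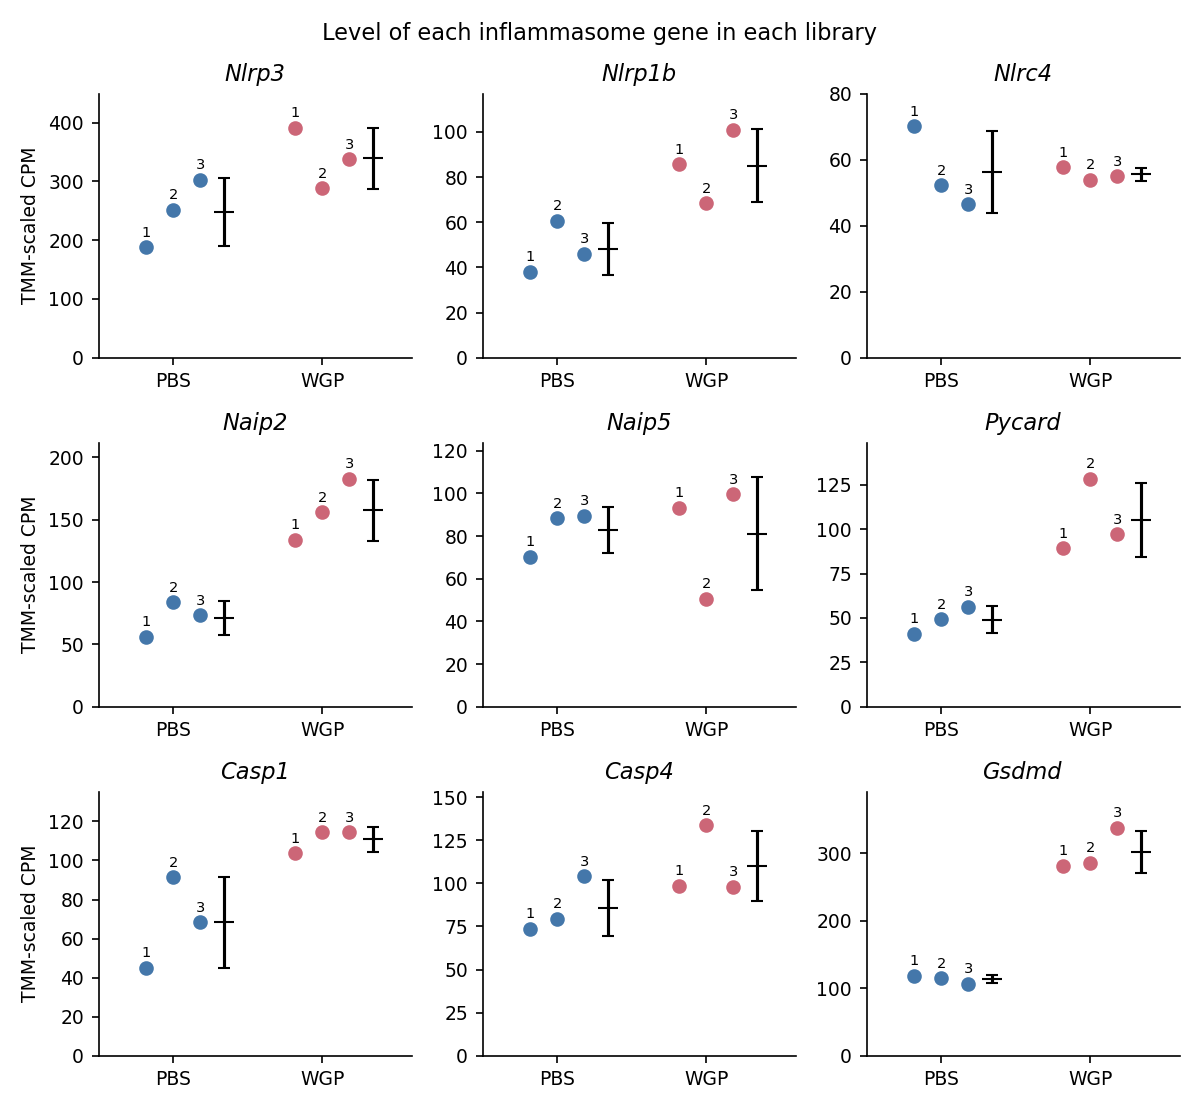
Level of each of the 9 inflammasome genes (vertical axis, TMM-scaled CPM from 0) in the 3 PBS libraries (blue) and 3 WGP libraries (red), with the replicate number above each point and the group mean ± SD in black. The groups are apart for Nlrp1b, Naip2, Pycard, Casp1 and Gsdmd and overlap for Nlrp3, Nlrc4, Naip5 and Casp4.

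**Figure D2:**
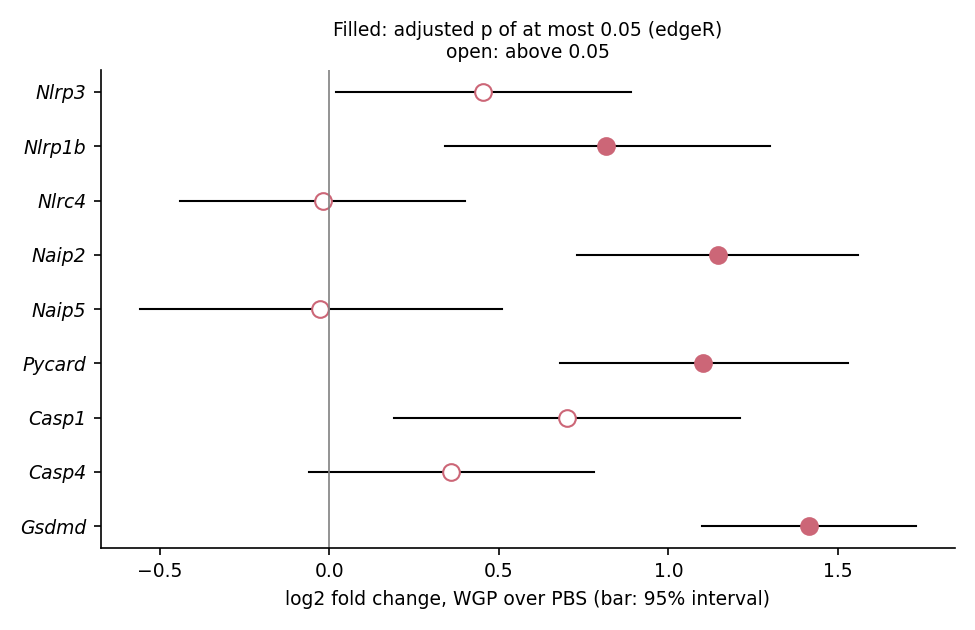
Log2 fold change of each gene, WGP over PBS (horizontal axis), with its 95% interval from the edgeR fit over 3 libraries a group. Filled points mark an adjusted p of at most 0.05, which Nlrp1b, Naip2, Pycard and Gsdmd reached, and the intervals of Nlrc4, Naip5 and Casp4 include 0.

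Nlrp3 encodes the sensor that responds to potassium efflux and other signs of cell stress, including those that follow the uptake of particles. Its gene (ENSMUSG00000032691) lies on the plus strand of chromosome 11 of GRCm38, from 59541568 to 59566956. The level of Nlrp3 was 188.4, 251.5 and 302.8 CPM in PBS replicates 1 to 3 and 391.1, 288.0 and 337.7 CPM in WGP replicates 1 to 3. The highest PBS library lay above the lowest WGP library, so the groups overlapped. The mean was 247.6 ± 57.3 CPM in PBS and 338.9 ± 51.6 CPM in WGP (SD, n = 3 each), a log2 fold change of 0.45 (SE 0.20) that did not pass (edgeR adjusted p = 0.172). The 200 bases before the first RefSeq start of Nlrp3 (GRCm38.p6, chr11:59541369-59541568, plus strand) are shown because they hold a match to the κB motif, with the match in capitals:
Nlrp3: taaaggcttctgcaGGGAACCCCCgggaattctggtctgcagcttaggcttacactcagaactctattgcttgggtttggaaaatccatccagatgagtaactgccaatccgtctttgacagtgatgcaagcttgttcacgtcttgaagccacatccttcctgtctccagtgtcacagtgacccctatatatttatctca

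Promoter windows from RefSeq, of 250 bases before to 50 bases after a start, were given for 8 of the 9 genes (11 windows, none for Gsdmd). They were searched on both strands for 4 motifs. These were the κB motif bound by NF-κB (GGG, 2 bases of any kind, TT, 1 base of any kind, CC), the PU.1 motif GAGGAAGT, the GAS motif TTCNNNGAA and the interferon-stimulated response element (GAAA, 2 bases of any kind, GAAA). Of 32851 mouse promoter windows of the same length, 4.79% held the κB motif, 3.20% the PU.1 motif, 8.30% the GAS motif and 3.44% the interferon-stimulated response element. Among the inflammasome genes, Nlrp3 and Casp4 held the κB motif, Nlrp1b and Pycard held the PU.1 motif, and neither of the other motifs was in any of the 11 windows. The κB match of Nlrp3 began 186 bases before the start. A match of letters is a description of the sequence and does not show binding.

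Nlrp1b encodes a sensor that is set off when its own N-terminal part is degraded. The gene (ENSMUSG00000070390) lies on the minus strand of chromosome 11 from 71153102 to 71230733. Its level was 38.08, 60.68 and 46.06 CPM in the PBS libraries and 85.7, 68.44 and 100.9 CPM in the WGP libraries. All WGP libraries lay above all PBS libraries, though WGP replicate 2 was close to PBS replicate 2. Nlrp1b rose from 48.3 ± 11.5 to 85.0 ± 16.3 CPM, a log2 fold change of 0.82 (SE 0.22, 95% interval 0.34 to 1.30, edgeR adjusted p = 0.0291). The call was lost without PBS replicate 1 (adjusted p = 0.0601), PBS replicate 3 (0.0756), WGP replicate 1 (0.0872) or WGP replicate 3 (0.127). Of the 75-base windows of its transcripts, the length of a sequenced read, 0.445% also occurred in its neighbour Nlrp1a, so few reads could have been split between them. The 200 bases before the upstream one of its 2 RefSeq starts (chr11:71230734-71230933, minus strand) are shown for the PU.1 match, in capitals, which began 96 bases before that start, and the window of the other start held none of the motifs searched:
Nlrp1b: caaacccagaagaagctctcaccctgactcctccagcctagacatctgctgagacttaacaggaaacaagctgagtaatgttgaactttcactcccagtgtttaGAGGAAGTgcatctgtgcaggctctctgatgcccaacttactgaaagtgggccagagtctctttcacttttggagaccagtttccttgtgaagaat

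Naip2 and Naip5 encode receptors for bacterial proteins, the type III secretion rod protein for NAIP2 and flagellin for NAIP5, and both hand the signal to NLRC4. The genes (ENSMUSG00000078945 and ENSMUSG00000071203) sit 9646 bases apart on the minus strand of chromosome 13, Naip2 from 100144063 to 100202092 and Naip5 from 100211739 to 100246323. Naip2 was measured at 56.22, 83.7 and 73.57 CPM in PBS and at 134.0, 155.8 and 182.9 CPM in WGP. The lowest WGP library was well above the highest PBS library. Naip2 rose from 71.2 ± 13.9 to 157.6 ± 24.5 CPM, with a log2 fold change of 1.15 (SE 0.19, 95% interval 0.73 to 1.56, edgeR adjusted p = 0.00234). Naip5, by contrast, was at 70.26, 88.35 and 89.53 CPM in PBS and at 93.24, 50.64 and 99.54 CPM in WGP. WGP replicate 2 was the lowest of all 6 libraries and the other WGP libraries were the highest. The means of Naip5 were 82.7 ± 10.8 and 81.1 ± 26.6 CPM (log2 fold change -0.03, SE 0.24, adjusted p = 0.965), and the 95% interval of -0.56 to 0.51 leaves room for a moderate change either way.

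Set against each other per kilobase of exon, Naip2 stood at 0.859, 1.02 and 0.882 times the level of Naip5 in the PBS libraries and at 1.54, 3.30 and 1.97 times in the WGP libraries. The neighbours were thus near parity in every PBS library and Naip2 was ahead in every WGP library. This ratio differed with an exact two-sided permutation p = 0.1, the smallest that 3 against 3 libraries allow, and the adjusted p was 0.3 over the 6 ratios between members that were computed. The reads of these paralogs could have been split in counting. Of the 75-base windows of Naip5, 23.8% also occurred in another gene, 11.3% in Naip6, 10.5% in Naip3, 6.61% in Naip1 and 4.05% in Naip2, and of those of Naip2 10.7% did, 6.15% in Naip1, 4.94% in Naip3 and 4.30% in Naip5. How reads that fit several genes were handled was not given in the sources used here, so both levels are uncertain by an amount of that order. The paralogs Naip6 and Naip1, chosen for this purpose after their values were seen, were at 71.3 ± 11.2 and 75.5 ± 17.9 CPM (Naip6, PBS and WGP) and at most 12.59 CPM in any library (Naip1), and neither passed the test. Naip1, with no count in PBS replicate 1, was past the threshold with a covariate for Y-linked counts that leaves this library alone to stand for PBS (adjusted p = 0.00795).

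Part of the sequence before the RefSeq starts of Naip2 and Naip5 is nearly the same. RefSeq places the start of Naip5 upstream of the GENCODE gene, which ends at 100246323 on the minus strand. The best ungapped match between the 200 bases before each RefSeq start was 83 bases long, ending 3 bases before the start of Naip2 (chr13:100202125-100202207, minus strand) and 10 bases before that of Naip5 (chr13:100247346-100247428, minus strand). The stretches are shown because Naip2 passed the test and Naip5 did not, while 77 of the 83 bases (92.8%) were identical, with the 6 bases that differ in capitals:
Naip2: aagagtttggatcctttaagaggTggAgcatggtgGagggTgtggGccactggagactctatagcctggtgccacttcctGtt
Naip5: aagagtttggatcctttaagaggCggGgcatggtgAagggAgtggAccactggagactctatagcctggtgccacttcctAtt
Neither window held any of the 4 motifs searched.

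Nlrc4, the partner that both NAIP proteins recruit, lies on the minus strand of chromosome 17 from 74425438 to 74459142 (ENSMUSG00000039193). Its level was 70.16, 52.26 and 46.50 CPM in PBS and 57.64, 53.92 and 55.05 CPM in WGP. The WGP libraries fell inside the range of the PBS libraries. The means were 56.3 ± 12.3 and 55.5 ± 1.91 CPM, a log2 fold change of -0.02 (SE 0.19, 95% interval -0.44 to 0.40, edgeR adjusted p = 0.968). Nlrc4 was 1 of the 2 members with a highest PBS level in PBS replicate 1, and Gsdmd was the other.

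Pycard encodes ASC, the adaptor whose filaments gather caspase-1 on an activated sensor. The gene (ENSMUSG00000030793) lies on the minus strand of chromosome 7 from 127989708 to 127993867. Pycard was at 41.05, 49.26 and 56.37 CPM in PBS and at 89.28, 128.5 and 97.17 CPM in WGP. Every WGP library was far above every PBS library. Pycard rose from 48.9 ± 7.67 to 105.0 ± 20.8 CPM (log2 fold change 1.10, SE 0.19, 95% interval 0.68 to 1.53, edgeR adjusted p = 0.00336). Its exons share 485 bases (12.8%) with Gm45205, an annotated transcript on the opposite strand, and since the strand setting of the counting was not given, reads of both cannot be told apart there. The 200 bases before its start (chr7:127993868-127994067, minus strand) hold a PU.1 match on the other strand, beginning 44 bases before the start and shown in capitals:
Pycard: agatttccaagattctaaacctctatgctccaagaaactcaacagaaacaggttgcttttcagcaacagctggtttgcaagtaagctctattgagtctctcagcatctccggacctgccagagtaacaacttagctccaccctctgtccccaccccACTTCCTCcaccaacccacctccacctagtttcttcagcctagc

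Casp1 encodes the protease that matures interleukin-1β and interleukin-18. It lies on the plus strand of chromosome 9 from 5298517 to 5307265 (ENSMUSG00000025888). Casp1 was measured at 45.11, 91.43 and 68.34 CPM in PBS and at 103.6, 114.6 and 114.5 CPM in WGP. All WGP libraries lay above all PBS libraries, and the PBS libraries were spread widely while the WGP libraries were close together. The means were 68.3 ± 23.2 and 110.9 ± 6.30 CPM, a log2 fold change of 0.70 (SE 0.23, 95% interval 0.19 to 1.21) that did not pass in edgeR (adjusted p = 0.072). Casp1 passed in DESeq2 (adjusted p = 0.0465), with the replicate number as a block (0.0372) and without PBS replicate 2 (0.0244), so its place on either side of the threshold depends on the fit.

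Casp4 encodes caspase-11, the protease that binds lipopolysaccharide in the cytosol, and starts 1562 bases after the end of Casp1, at 5308828 to 5336783 on the same strand (ENSMUSG00000033538). Its level was 73.7, 79.6 and 104.3 CPM in PBS and 98.73, 133.7 and 98.03 CPM in WGP. The highest PBS library lay above 2 of the 3 WGP libraries. The means were 85.9 ± 16.3 and 110.2 ± 20.4 CPM, a log2 fold change of 0.36 (SE 0.19, 95% interval -0.06 to 0.78, edgeR adjusted p = 0.271). The 2 caspase genes shared no 75-base window with any other gene. The 200 bases before the first RefSeq start of Casp4 (chr9:5308649-5308848, plus strand) are shown because they hold overlapping κB matches that begin 93 and 92 bases before the start, and another on the other strand 14 bases before it, all in capitals:
Casp4: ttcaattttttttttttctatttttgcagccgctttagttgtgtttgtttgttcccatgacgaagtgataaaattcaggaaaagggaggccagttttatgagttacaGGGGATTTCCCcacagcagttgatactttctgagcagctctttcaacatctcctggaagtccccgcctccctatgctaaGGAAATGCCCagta
The 2 genes with κB matches, Casp4 and Nlrp3, did not pass the test, and the 2 with PU.1 matches, Nlrp1b and Pycard, did, which is a count over 4 genes and no more.

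Gsdmd encodes gasdermin D, the pore former cut by caspase-1 and caspase-11. It lies on the plus strand of chromosome 15 from 75862327 to 75867408 (ENSMUSG00000022575). Gsdmd was at 118.4, 114.7 and 106.9 CPM in PBS and at 281.6, 286.2 and 338.1 CPM in WGP. The PBS libraries lay close together and every WGP library was far above them. Gsdmd rose from 113.3 ± 5.87 to 302.0 ± 31.4 CPM, a log2 fold change of 1.41 (SE 0.14, 95% interval 1.10 to 1.73, edgeR adjusted p = 0.000131). Its smallest log2 fold change under any other setting tried was 1.31, and it was the member with the largest change in the reported fit.

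Levels per kilobase of exon allow genes to be compared only as far as the annotated length is that of the RNA present. On this scale the order of the members differed between groups at its top. In PBS, Nlrp3 had the highest mean (61.0 ± 14.1 CPM per kilobase), followed by Gsdmd (47.7 ± 2.47) and Casp1 (45.6 ± 15.5), and the ranges of these neighbours overlapped. Casp4 came next at 23.1 ± 4.38, apart from Casp1 above and Naip5 below. Naip5 (15.9 ± 2.08), Naip2 (14.7 ± 2.87), Pycard (12.9 ± 2.02) and Nlrc4 (11.7 ± 2.57) each overlapped the next, and Nlrp1b was lowest at 7.66 ± 1.82. Sensors thus stood at both ends of the order in PBS.

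In WGP, Gsdmd led at 127 ± 13.2 CPM per kilobase, apart from Nlrp3 at 83.5 ± 12.7, which overlapped Casp1 at 74.1 ± 4.22. A middle group of Naip2 (32.5 ± 5.06), Casp4 (29.7 ± 5.50) and Pycard (27.6 ± 5.46) overlapped one with the next and was apart from Casp1 above it and Naip5 below it. Naip5 (15.6 ± 5.11), Nlrp1b (13.5 ± 2.58) and Nlrc4 (11.6 ± 0.397) closed the order with overlapping ranges. Divided by the length of the longest transcript instead of all exons, Gsdmd led in PBS too (63.2 ± 3.28, with Nlrp3 at 61.6 ± 14.3 and overlapping ranges), and Casp4 stood close to Casp1 in PBS, at 45.2 ± 8.54. By that length Casp4 was at 57.9 ± 10.7 in WGP, overlapping Casp1 and apart from Naip2, so it was no longer in the middle group. For Pycard both lengths were 3800 bases, so this check could not move its level. The place of Pycard in the order and the size of its ratios to other members rest on that length. A shorter main transcript would place it higher, which was not examined.

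**Figure D3:**
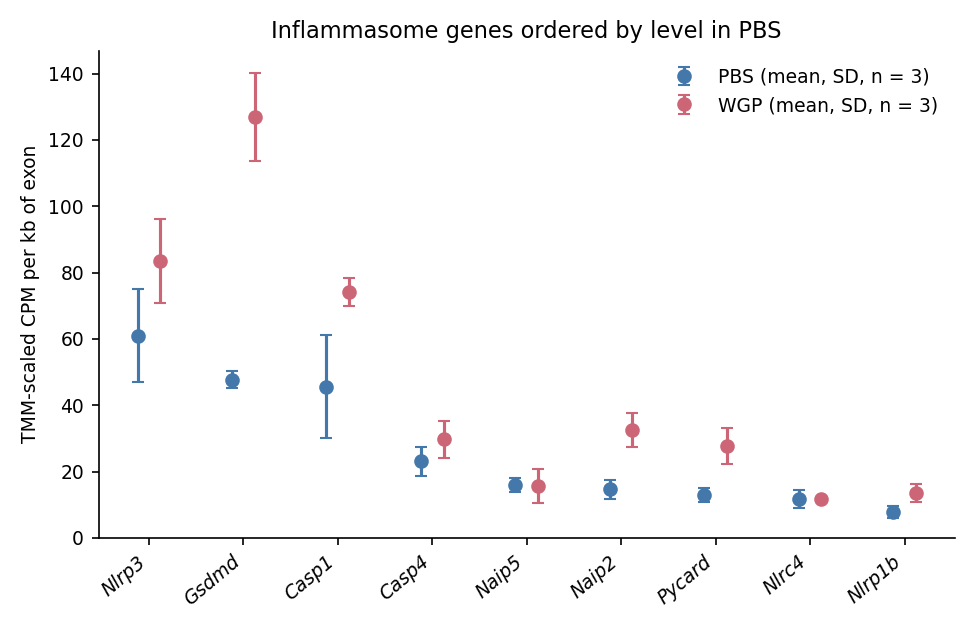
Level of each inflammasome gene in CPM per kilobase of exon (vertical axis, mean ± SD of 3 libraries) in PBS (blue) and WGP (red), with the genes ordered by their PBS mean. Gsdmd stands at 47.7 in PBS and 127 in WGP, and the means of Nlrc4 are 11.7 and 11.6.

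Other ratios between members were formed within each library. Pycard stood at 0.199 to 0.233 times the level of Nlrp3 per kilobase in PBS and at 0.244 to 0.476 times in WGP, with the groups apart by a narrow gap (exact permutation p = 0.1, adjusted p = 0.3 over the 6 ratios). For the other ratios computed, Casp1 to Casp4, Pycard to Casp1, Gsdmd to Casp1 and Nlrp3 to Nlrc4, the groups overlapped. Gsdmd stood at 1.65, 0.79 and 0.985 times the level of Casp1 in PBS and at 1.71, 1.57 and 1.86 times in WGP.

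Inflammasome activity also depends on genes outside these 9, and 7 further lists of the pathway were examined in the same fit. Of 7 other sensors tested, 2 passed, both higher. Mefv, which encodes the sensor pyrin, was at 17.67 to 31.42 CPM in PBS and 195.5 to 232.2 CPM in WGP, a rise of 3.08 on the log2 scale (SE 0.22, edgeR adjusted p = 1.9e-05). Nlrp1a, the neighbour of Nlrp1b, rose from 9.70 ± 2.24 to 26.6 ± 2.13 CPM (log2 fold change 1.46, adjusted p = 0.00496), a call that was lost with a covariate for Y-linked counts (1.21, adjusted p = 0.0735). That fit rests on PBS replicate 1 as the only PBS library without such counts, and takes its spread from the other libraries. The groups were apart for both genes. Aim2, the sensor of cytosolic DNA, named here after its values were seen, did not pass (log2 fold change -0.12, adjusted p = 0.742). Nlrp9b had no count in any library and Nlrp6 was too low to be tested.

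Regulators and ion channels of NLRP3 and NLRP1 went both ways: of 11 tested genes, 2 passed as higher and 3 as lower. Txnip, which encodes a thioredoxin-binding protein linked to NLRP3 activation, was at 942.2 to 1289 CPM in PBS and fell to 607.0 to 681.8 CPM in WGP (log2 fold change -0.86, edgeR adjusted p = 0.00522). Nek7, the kinase that bridges NLRP3 subunits, fell by 0.67 on the log2 scale (adjusted p = 0.0102). Panx1, a membrane channel, rose 1.18 (adjusted p = 0.0221). P2rx7, the ATP-gated channel that lets potassium out, fell by 0.81 on the log2 scale (adjusted p = 0.0275). P2rx4, a related ATP-gated channel, rose 0.74 on the log2 scale (adjusted p = 0.044), a call also lost with library totals only or another filter on low counts, that of filterByExpr in edgeR. Txnip and Nek7 passed in every refit, and the calls of P2rx7, P2rx4 and Panx1 were lost without 1 or another library, so that 2 to 5 genes of this list passed when a library was left out. The calls of P2rx7 (log2 fold change -0.22, adjusted p = 0.472) and Panx1 (1.05, adjusted p = 0.169) were also lost with the covariate for Y-linked counts.

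Of 3 tested genes for other pore formers and membrane rupture, none passed in edgeR. Ninj1, whose product ruptures the membrane after the pores form, was at 146.8, 272.4 and 425.5 CPM in PBS and 314.1, 389.0 and 334.7 CPM in WGP (log2 fold change 0.30, adjusted p = 0.589), and it was past the threshold with the covariate for Y-linked counts (log2 fold change 1.24, adjusted p = 0.0157), where PBS replicate 1, its lowest library, alone stands for PBS. Gsdme, a gasdermin cut by caspase-3, stayed between 3.28 and 6.27 CPM in all libraries. The other gasdermin genes Gsdma, Gsdma2, Gsdma3, Gsdmc, Gsdmc2 and Gsdmc3 had no count in any library, and Gsdmc4 was at most 0.924 CPM, so of the gasdermin genes listed here Gsdmd and Gsdme had counts in both groups.

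All 8 genes of linked death pathways described here were higher in WGP, as were 46.8% of all tested genes, and 3 of them passed, with a median log2 fold change of 0.47. Zbp1, which senses Z-form nucleic acid, rose from 44.5 ± 8.68 to 350.8 ± 70.0 CPM (log2 fold change 2.98, edgeR adjusted p = 1.9e-05). Mlkl, the executioner of necroptosis, rose 1.70 (adjusted p = 0.00241) and Ripk3, the kinase that activates MLKL, rose 0.83 (adjusted p = 0.0357). The call of Ripk3 was lost in 5 of the 6 fits that left out a library, with library totals only (0.71, adjusted p = 0.082) and with the covariate for Y-linked counts (0.46, adjusted p = 0.34).

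Among the cytokines that inflammasomes release and their antagonists, 4 of 6 genes rose. Il1b was at 322.3, 352.0 and 351.3 CPM in PBS and at 3557, 1960 and 2651 CPM in WGP (log2 fold change 2.99, edgeR adjusted p = 2.2e-05). Il1rn, which encodes the receptor antagonist of interleukin-1, rose 4.19 (adjusted p = 6e-06), with 27.34 to 44.18 CPM in PBS and 523.9 to 806.5 CPM in WGP. Il18bp, the decoy of interleukin-18, rose 3.36 (adjusted p = 4.3e-05) and Il1a rose 1.66 (adjusted p = 0.00121). Il18 itself, named here after its values were seen, was at 15.25 to 19.09 CPM in PBS and 23.12 to 33.26 CPM in WGP, with the groups apart, and did not pass (log2 fold change 0.70, adjusted p = 0.0843). Both antagonists thus had larger log2 fold changes than the cytokine each one blocks, a difference that was not tested.

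The guanylate-binding proteins and GTPases listed for the caspase-11 route rose together. All 5 tested genes, Gbp2, Gbp3, Gbp5, Gbp7 and Irgm2, were past the threshold, with a median log2 fold change of 3.12. Gbp2 was at 59.72 to 70.86 CPM in PBS and 1229 to 3137 CPM in WGP (log2 fold change 4.93, edgeR adjusted p = 1.9e-05). Gbp5 rose 5.37, Gbp3 rose 2.52 and Gbp7 rose 2.38 (adjusted p = 2.9e-05, 0.000125 and 0.000234). The level of Casp4, on which this route converges, did not pass. WGP replicate 2 had the highest summed level of these genes (5660 CPM, against 2430 and 2990 CPM in the other WGP libraries) and, among the members, the highest level of its group for Casp4, Pycard and Casp1 and the lowest for Nlrp3, Nlrp1b, Nlrc4 and Naip5.

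Of 5 transcription factor genes known to drive inflammasome genes, 3 rose. Irf1, which induces Gbp genes among others, rose from 209.5 ± 58.8 to 1029 ± 223 CPM (log2 fold change 2.30, edgeR adjusted p = 0.000153), and Irf2, known for its part in Gsdmd transcription, rose 0.96 (adjusted p = 0.0017), as did Irf8, a myeloid factor linked to Naip genes (0.96, adjusted p = 0.00521). The call of Irf8 was lost with the covariate for Y-linked counts (adjusted p = 0.0637). Irf2 was at 169.3 to 196.0 CPM in PBS and 321.6 to 407.5 CPM in WGP. The NF-κB genes Nfkb1 and Rela did not pass (log2 fold changes 0.48 and 0.16, adjusted p = 0.0925 and 0.511), though Nfkb1 passed in DESeq2 and without PBS replicate 1. The lists were written with earlier results of these data known, so their counts describe the pathway and are no independent support.

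**Figure D4:**
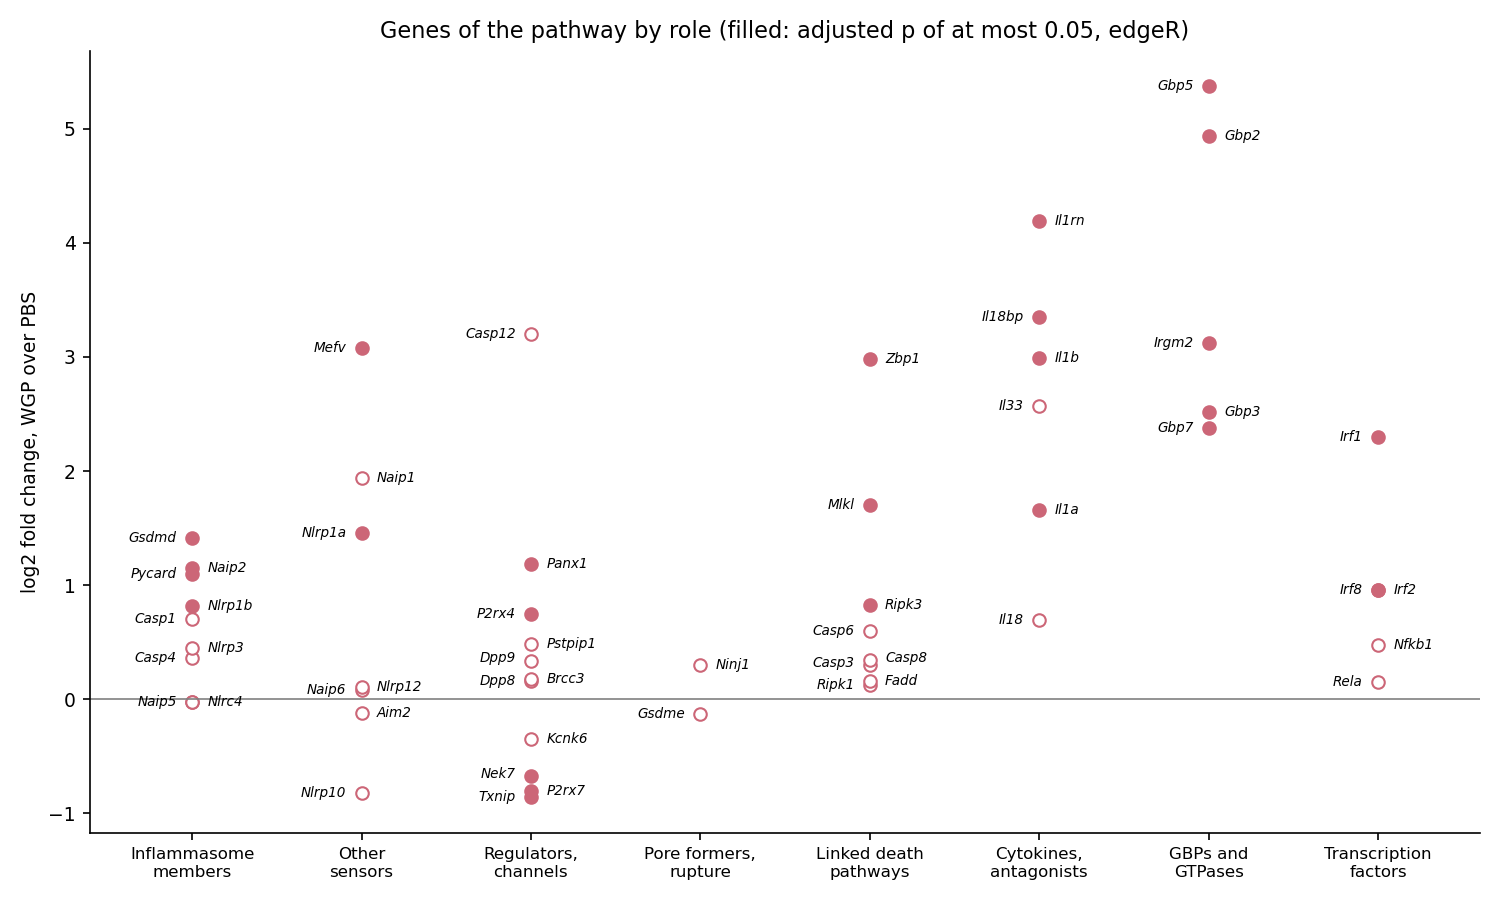
Log2 fold change, WGP over PBS (vertical axis), of the inflammasome genes and of the 7 other lists of the pathway (horizontal axis), for tested genes with at least 100 counts in 1 library. Filled points passed in edgeR at an adjusted p of 0.05, the members lie between -0.03 and 1.41, and Gbp5, Gbp2 and Il1rn lie above 4.

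Marker levels of several cell types differed between the groups, and their part in the levels of the inflammasome genes was not tested. All 10 resident macrophage markers fell, with summed levels of 5620 to 14400 CPM in PBS and 976 to 1170 CPM in WGP. Of 8 markers of Ly6C-high monocytes, 5 rose and 1 fell (2670 to 4230 CPM in PBS, 3860 to 4440 CPM in WGP). The gene that fell, F13a1, is also in the resident macrophage list, and without it the summed level was 758 to 1340 CPM in PBS and 3520 to 4000 CPM in WGP. Of 7 general macrophage markers 1 passed as higher and 1 as lower (7070 to 12800 and 6260 to 7620 CPM), with 2 higher and 5 lower in all. Of 10 neutrophil markers 1 passed as higher and 1 as lower (2420 to 6530 and 2600 to 2770 CPM). Of these 10, 9 were lower and 1 was higher, with a median log2 fold change of -0.94. The genes of the sorting gate, Ptprc for CD45 and Itgam for CD11b, both rose, with summed levels of 1200 to 1230 CPM in PBS and 1930 to 2140 CPM in WGP. All 6 pancreatic acinar markers and all 5 B cell markers fell (978 to 4130 and 361 to 2410 CPM in PBS, 270 to 498 and 86.8 to 169 CPM in WGP). For conventional dendritic cells and for eosinophils 1 of 7 markers passed as lower, with 5 lower and 2 higher in each list. All 6 NK cell markers were lower and 2 passed. For T cells 4 of 5 were higher and 1 passed, Cd8a, at most 2.94 CPM in any library. For mast cells and basophils 1 of 4 tested passed as higher, with Mcpt4 and Cpa3 at 0 in all libraries. Ptprc and Itgam together had a median log2 fold change of 0.75, beside 1.41 for Gsdmd, 1.15 for Naip2, 1.10 for Pycard and 0.82 for Nlrp1b, the members that passed, and no difference from the gate genes was tested.

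The presence of Y-linked counts was set against the members in another way, chosen after the data were seen, by taking PBS replicate 1 as the only PBS library. All 3 WGP libraries then lay above it for 7 members, all 3 lay below it for Nlrc4, and they lay on both sides for Naip5. The log2 ratio of the WGP mean to this library was 1.35 for Gsdmd, 1.49 for Naip2, 1.35 for Pycard, 1.16 for Nlrp1b, 1.30 for Casp1, 0.85 for Nlrp3 and 0.58 for Casp4. These ratios have no replicate on the PBS side and no test.

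**Figure D5:**
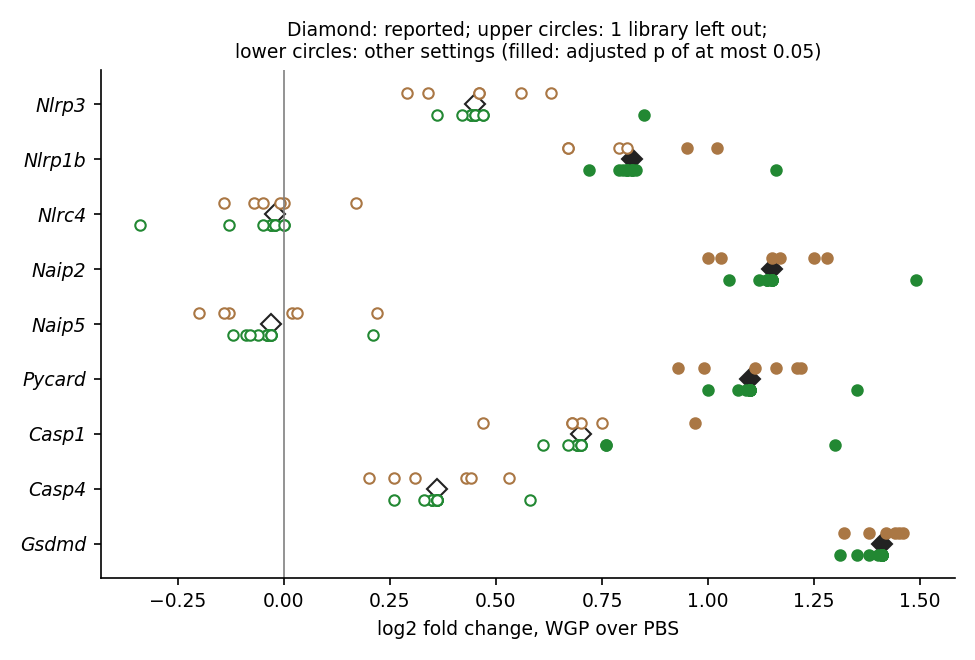
Log2 fold change of each inflammasome gene, WGP over PBS (horizontal axis), as reported (diamond), with 1 library left out (upper circles) and under other settings (lower circles), filled where the adjusted p was at most 0.05. Gsdmd, Naip2 and Pycard are filled throughout, Nlrp1b and Casp1 are filled in part, Nlrp3 is filled in 1 setting (0.85, with the covariate for Y-linked counts), and Nlrc4 and Naip5 lie on both sides of 0.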

How the data were processed

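Poly-A RNA of sorted CD45+CD11b+ cells was sequenced as single-end reads of 75 bases. The authors deposited 1 table of raw read counts per gene. The submitters' processing notes name STAR 2.6, HTSeq 0.10.0 and the builds mm10 and GRCm38.p6; the annotation release, strand setting and handling of duplicates are not given in the sources used here. With the very lowest counts left out and their frequencies smoothed, the most frequent low count was 18 to 39 by library. The lowest count of a member was 1464. The part of duplicated reads in these counts was not tested.

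Genes were named and placed with GENCODE vM21. The 14429 protein-coding genes whose RLE-normalized counts added up to 10 or more across the 6 libraries were fitted by treatment in edgeR 4.0.16 (quasi-likelihood test, TMM, R 4.3.3), and an adjusted p (Benjamini-Hochberg over all these genes) of at most 0.05 was a pass. The fit was tested on simulated data. DESeq2 1.42.0, limma-voom 3.58.1, other scalings and filters, covariates and leaving out each library were alternatives. Medians of all genes shifted from -0.05 to -0.16 on the log2 scale with library totals alone. CPM per kilobase used the union of exons. The 9 genes, defined by name, and the lists were chosen with earlier results of these data known. In each other list of the pathway up to 4 passing genes were named in order of p, or, where fewer than 2 passed, the 2 of highest mean CPM. P2rx4 and Irgm2 were named beyond this number, and other exceptions are given where they are named. Values of 1 listed gene of the pathway are not reported here.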

Additional observations from a re-analysis of the deposited data

How the results depend on the processing

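Over 18 alternatives, 3 to 6 of the 9 inflammasome genes passed (3 to 5 with a library left out), and Gsdmd, Naip2 and Pycard passed in every refit, with log2 fold changes of 1.31 to 1.46, 1.00 to 1.49 and 0.93 to 1.35. Nlrp1b ranged from 0.67 to 1.16 (adjusted p 0.0105 to 0.127), Casp1 from 0.47 to 1.30 (0.00616 to 0.178), Nlrp3 from 0.29 to 0.85 (0.0339 to 0.434) and Casp4 from 0.20 to 0.58 (0.123 to 0.556). With a covariate for Y-linked counts, which leaves PBS replicate 1 alone to stand for PBS and assumes that it varies like the other libraries, Nlrp3 and Casp1 had adjusted p = 0.0339 and 0.00616, which are no replicated result. A further limit of 1 on the size of the log2 fold change left 1369 of the 2071 passing genes, by its own construction. Signs that turned were all of genes that passed in neither fit, and the cause was not tested: Nlrc4 was at 0.00 in limma-voom and at -0.14 to 0.17 with a library left out, Naip5 at 0.21 with the Y covariate or against PBS replicate 1 alone and at -0.20 to 0.22 with a library left out, Naip6 at -0.01 with library totals only, and Brcc3, Kcnk6 and Fadd at -0.04, 0.20 and -0.22 with the Y covariate. With a library left out, ranges that crossed 0 were -0.11 to 0.26 for Nlrp12, -0.09 to 0.25 for Naip6, -0.26 to 0.02 for Aim2, -0.56 to 0.02 for Kcnk6, -0.29 to 0.10 for Gsdme, -0.01 to 0.73 for Ninj1, -0.07 to 0.40 for Fadd and -0.03 to 0.19 for Ripk1. By the longest transcript, the mean level over all libraries was 15.4 CPM per kilobase for Nlrp1b, 51.6 for Casp4 and 116 for Gsdmd. The number of all tested genes passing was 1417 to 2203 and that of the other pathway genes 18 to 23 with a library left out.

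The labels gave replicate numbers and named no pairing. Deviations of same-numbered PBS and WGP libraries from their group means correlated at 0.0027, -0.045 and 0.011. Such values cannot show whether same-numbered libraries shared a day or a preparation. With the replicate number as a block, 1947 genes and 5 members passed, Casp1 being the added member, and Nlrc4 was at 0.00.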
